A study of Homo sapiens with 10 samples.

Results

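The ZNF genes, the largest named set of human zinc finger genes, were followed in MEG-01 cells given an excess of miR-1225-3p. Of 443 genes with a RefSeq symbol made of ZNF and a number that had a probe on the array, 180 were detected on all 10 arrays and form the set described here. They were selected on signal: a probe had to be well above the local background on every array, and a gene with several such probes was represented by the brightest, so that the level of the 180 genes is a product of the selection and not a result. The difference between the 2 groups played no part in the selection, except that a gene lost from detection in either group could not enter it. MEG-01 is a human megakaryoblastic leukemia line. In both groups the cells were nucleofected with 200 nM of a double-stranded microRNA precursor and their RNA was taken after 24 hours, the precursor being pre-miR-1225-3p in one group and a negative control sequence, called scrambled here, in the other. The source labels of the scrambled samples read as untreated cells, against their titles and the treatment protocol, which were followed, so that every difference is stated against controls taken to be nucleofected. Each group had 5 replicates, from independent experiments done in parallel, hybridized in a single colour to Agilent SurePrint G3 Human arrays. All arrays came from 1 cell line, cells that took up the precursor were measured together with those that did not, and in such bulk RNA fewer cells of a kind and less RNA per cell cannot be told apart.

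Most ZNF genes encode C2H2 zinc finger proteins, in which a row of small zinc-bound folds reads out bases of DNA. Many carry a KRAB domain ahead of the fingers, which recruits the corepressor TRIM28 and with it the histone methyltransferase SETDB1, HP1 proteins and the NuRD complex, and so keeps transposable elements and other targets silent. The KRAB members arose largely by tandem duplication, and in the human genome they lie in dense runs on chromosome 19. Other ZNF proteins bind promoters as activators, belong to chromatin complexes, bind RNA or ribosomes, or act in the ubiquitin and SUMO systems.

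A microRNA pairs with messenger RNA mainly through bases 2 to 8 of its mature strand, the seed. The mature strand supplied by the precursor is shown 5′ to 3′ with the seed in capitals, as RefSeq gives it (GRCh38.p14, chr16:2090195-2090216, minus strand). Pairing with the messages of the ZNF genes was not analysed here.
hsa-miR-1225-3p: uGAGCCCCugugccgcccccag

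Between 41.95% and 61.18% of the spots of an array were well above background, and no spot was saturated. Among the megakaryocyte markers, ITGA2B, ITGB3, GATA1, TAL1, NFE2, FLI1 and RUNX1 were detected on all 10 arrays, GP9 and GP1BA on some, and PF4 had no kept probe. 3 of the 9 tested were lower in the miR-1225-3p group and 1 was higher, and the summed log2 level of the 9 tested ran from 71.91 to 79.01 in that group, against 79.4 to 80.43 in the scrambled group. For other cell types, CD3E and ALB had no kept probe. The epithelial marker EPCAM was detected on all 10 arrays and was higher in the miR-1225-3p group (log2 fold change 0.93, SE 0.21, adjusted p = 0.0157). Summed log2 levels of the 2 tested markers of other cells ran from 17.07 to 19.24 on the miR-1225-3p arrays and from 16.47 to 18.38 on the scrambled arrays, and the part of either marker list in the results was not tested. The array labelled miR-1225-3p replicate 5 stood apart from its group. On the first principal component of the 180 genes, which held 77.4% of their variance, it scored 4.55, within the range of 3.12 to 8.75 of the scrambled arrays, while replicates 1 to 4 scored between -10.5 and -5.55. Its level lay within the range of the 5 scrambled arrays for 99 of the 180 genes (55%). The same held for 11321 of all 17166 genes tested and 7541 of the 11867 genes detected on all 10 arrays. All 10 arrays were kept, and results are given with and without this array where it matters.

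Of the 180 ZNF genes, 75 (41.7%) differed between the groups at an adjusted p under 0.05, beside 35.4% of the 17166 genes tested on the array and 35.0% of the 11867 genes detected on all 10 arrays. The p-values came from limma with Benjamini-Hochberg adjustment over all genes tested. In the miR-1225-3p group 33 of the 180 (18.3%) were higher and 42 (23.3%) were lower, beside 17.3% and 18.1% of all genes tested. A fold change over 2 accompanied the call for 10 of the higher and 11 of the lower genes, 11.7% of the 180 beside 17.5% of all genes. Of the 11867 genes detected on all 10 arrays, 447 were called higher and 1096 lower with such a fold. For 27 genes (15.0%, beside 12.4% of all genes) the 5 arrays of one group all lay on one side of the 5 of the other, 14 of them higher and 13 of them lower. Over the 180 genes the log2 fold change had a median of 0.10, between extremes of -3.42 and 1.40, beside a median of -0.05 over all genes tested. The remaining 105 genes ran from -1.75 to 0.71 and did not pass the test, the lowest of them being ZNF843 at -1.75 (SE 0.75, adjusted p = 0.0861).

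**Figure D1:**
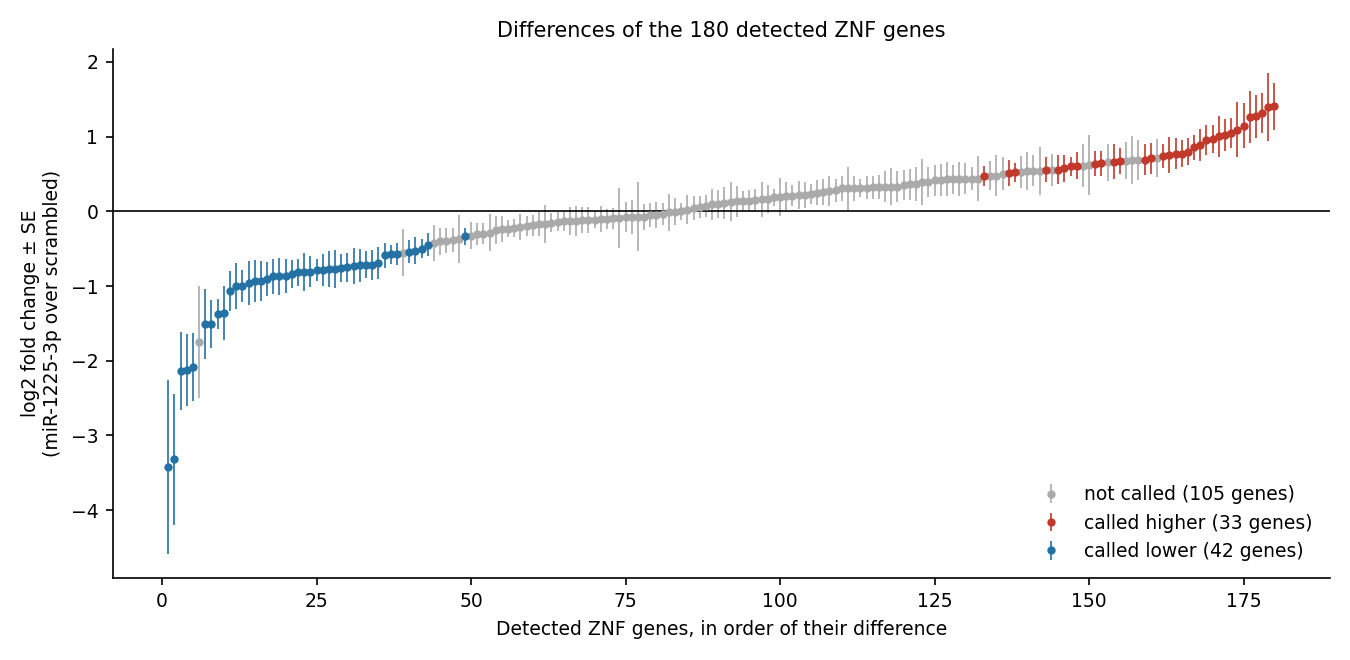
Each point is 1 of the 180 detected ZNF genes, placed on the x axis in order of its log2 fold change (y axis, miR-1225-3p over scrambled, bars ± SE from limma), with 33 genes called higher in red, 42 called lower in blue and 105 not called in grey. The falls reached farther from 0 than the rises, with the lowest gene at -3.42 and the highest at 1.40.

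The size of these counts rested on single arrays. With miR-1225-3p replicate 5 left out, 116 of the 180 genes passed (64.4%, beside 55.9% of all genes), 68 higher and 48 lower, beside 27.5% and 28.4% of all genes, and they included all 75 of the first count. Without miR-1225-3p replicate 2, 3 or 4 the count was 30, 29 or 44 (16.7%, 16.1% or 24.4%, beside 12.4%, 13.5% or 20.7% of all genes). Without scrambled replicate 1, 2, 3 or 4 it was 47, 46, 49 or 44 (26.1%, 25.6%, 27.2% or 24.4%, beside 19.6%, 19.5%, 20.4% or 18.1%). Without miR-1225-3p replicate 1 or scrambled replicate 5 it was 56 or 55 (31.1% or 30.6%, beside 24.9% or 27.6%). All 75 kept their direction in each of these fits. The arrays lay on 2 slides. Within slide 1, which held 2 miR-1225-3p and 3 scrambled arrays, 42 of the 180 genes passed (23.3%, beside 26.7% of all genes), and within slide 2, which held miR-1225-3p replicate 5, none did, with 10 at an unadjusted p under 0.05 by the same limma fit. On slide 2 without that array 63 passed (35.0%, beside 33.4% of all genes). The balance of higher and lower depended on the scaling. When each array was scaled to its 75th percentile in place of cyclic loess, 53 of the 180 genes were higher and 19 lower, beside 28.2% and 14.0% of all genes, the lower genes made up 26.4% of the calls in place of 56.0%, and the median of all genes moved from -0.05 to 0.23. Relative to the median of all genes, the median of the ZNF genes lay 0.15 above it under cyclic loess, 0.11 under the 75th percentile, 0.13 under quantile normalization and 0.11 with no normalization between arrays.

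**Figure D2:**
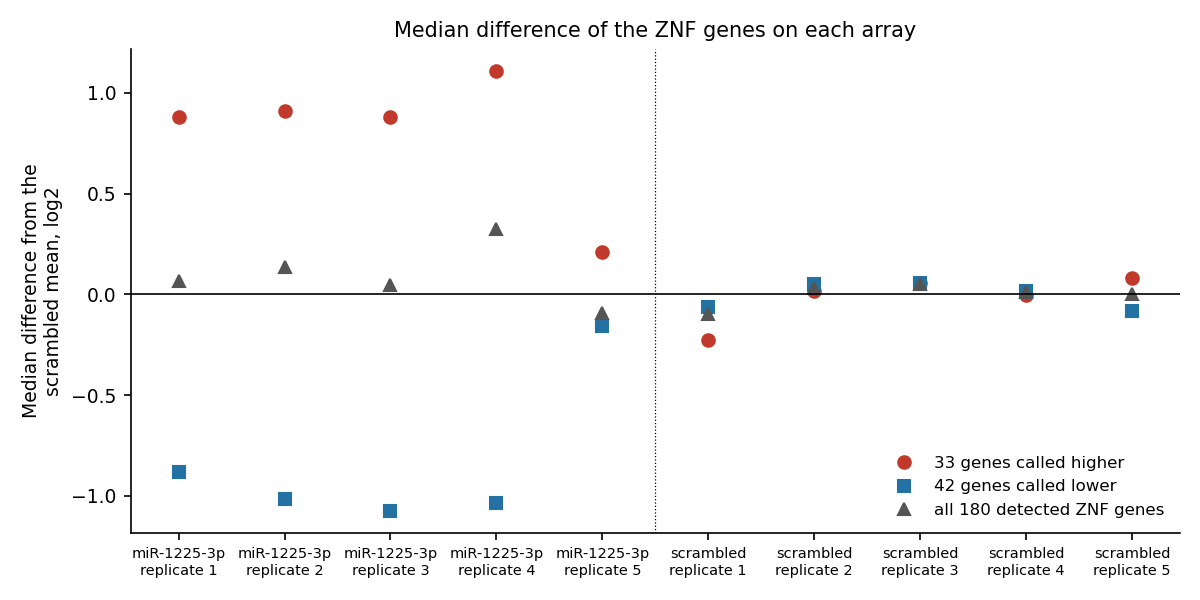
For each of the 10 arrays (x axis) the points give the median difference from the scrambled mean, on the log2 scale, of the 33 genes called higher, the 42 called lower and all 180 ZNF genes. On miR-1225-3p replicates 1 to 4 the genes called higher lay between 0.88 and 1.11 and those called lower between -1.07 and -0.88, whereas on replicate 5 they lay at 0.21 and -0.16, near the scrambled arrays.

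Among the largest falls was ZNF467, known for steering mesenchymal precursors between fat and bone. Its log2 signal was 11.25, 10.17, 11.64, 9.46 and 14.51 on the miR-1225-3p arrays, against 16.60, 14.66, 14.12, 14.17 and 14.05 on the scrambled arrays. Replicate 5 thus lay among the scrambled arrays and the other miR-1225-3p arrays below all of them (log2 fold change -3.32, SE 0.88, adjusted p = 0.0218). A second, dimmer probe of ZNF467, detected on 8 arrays, gave a log2 fold change of -0.06 (adjusted p = 0.874), so that the 2 probes disagreed. ZNF205 had the lowest log2 fold change of the set (log2 fold change -3.42, SE 1.16, adjusted p = 0.0438), but also the largest SE. Its signal was 6.98, 6.27, 9.49, 5.84 and 11.32 with miR-1225-3p and 14.38, 11.51, 9.86, 11.04 and 10.21 with the scrambled precursor. The groups overlapped, and the call for ZNF205 was lost in 9 of the 10 fits that left out 1 array.

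ZNF746, or PARIS, a repressor of PPARGC1A that parkin marks for degradation, fell from a mean of 11.98 ± 0.51 (SD, n = 5) to 9.84 ± 1.21 (SD, n = 5), with log2 fold change -2.14, SE 0.52, adjusted p = 0.018. On the 5 miR-1225-3p arrays it read 9.61, 9.21, 9.07, 9.34 and 11.97. The scrambled arrays read 12.31, 12.63, 11.72, 11.91 and 11.34, so that only replicate 5 of the miR-1225-3p group reached their range. ZNF587, a KRAB zinc finger gene of chromosome 19, had the tightest control values of the 10 largest falls, 9.70, 9.65, 9.59, 9.50 and 9.51, against 7.45, 6.86, 6.90, 6.82 and 9.47. All 5 miR-1225-3p arrays lay below all scrambled arrays, replicate 5 by a narrow margin (log2 fold change -2.09, SE 0.46, adjusted p = 0.0153, exact permutation p = 0.00794, two-sided and the smallest that 5 against 5 allows).

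Among the other 9 of the 10 largest falls, 3 were also free of overlap. ZNF609, whose protein works with the cohesin loader and whose locus yields a well-studied circular RNA, read 6.03, 5.18, 5.82, 5.74 and 7.12 against 8.02, 7.16, 7.65, 7.41 and 7.19 (log2 fold change -1.51, SE 0.33, adjusted p = 0.0151). ZNF574 read 7.44, 7.82, 7.90, 7.84 and 8.35 against 9.57, 9.32, 9.36, 9.17 and 8.80 (log2 fold change -1.37, SE 0.20, adjusted p = 0.0137), and here replicate 5 too was clearly below the scrambled arrays. ZNF627 gave -1.36 (SE 0.35, adjusted p = 0.021) on the log2 scale. For ZNF157, ZNF581 (called in 2 of the 10 fits that left out 1 array) and ZNF787 the groups overlapped, with log2 fold changes of -2.12 (SE 0.48), -1.51 (SE 0.47) and -1.06 (SE 0.26) and adjusted p of 0.0157, 0.033 and 0.0184. Of the 10 largest falls, 6 kept an adjusted p under 0.05 whichever array was left out, and 10 kept it under 75th percentile scaling.

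**Figure D3:**
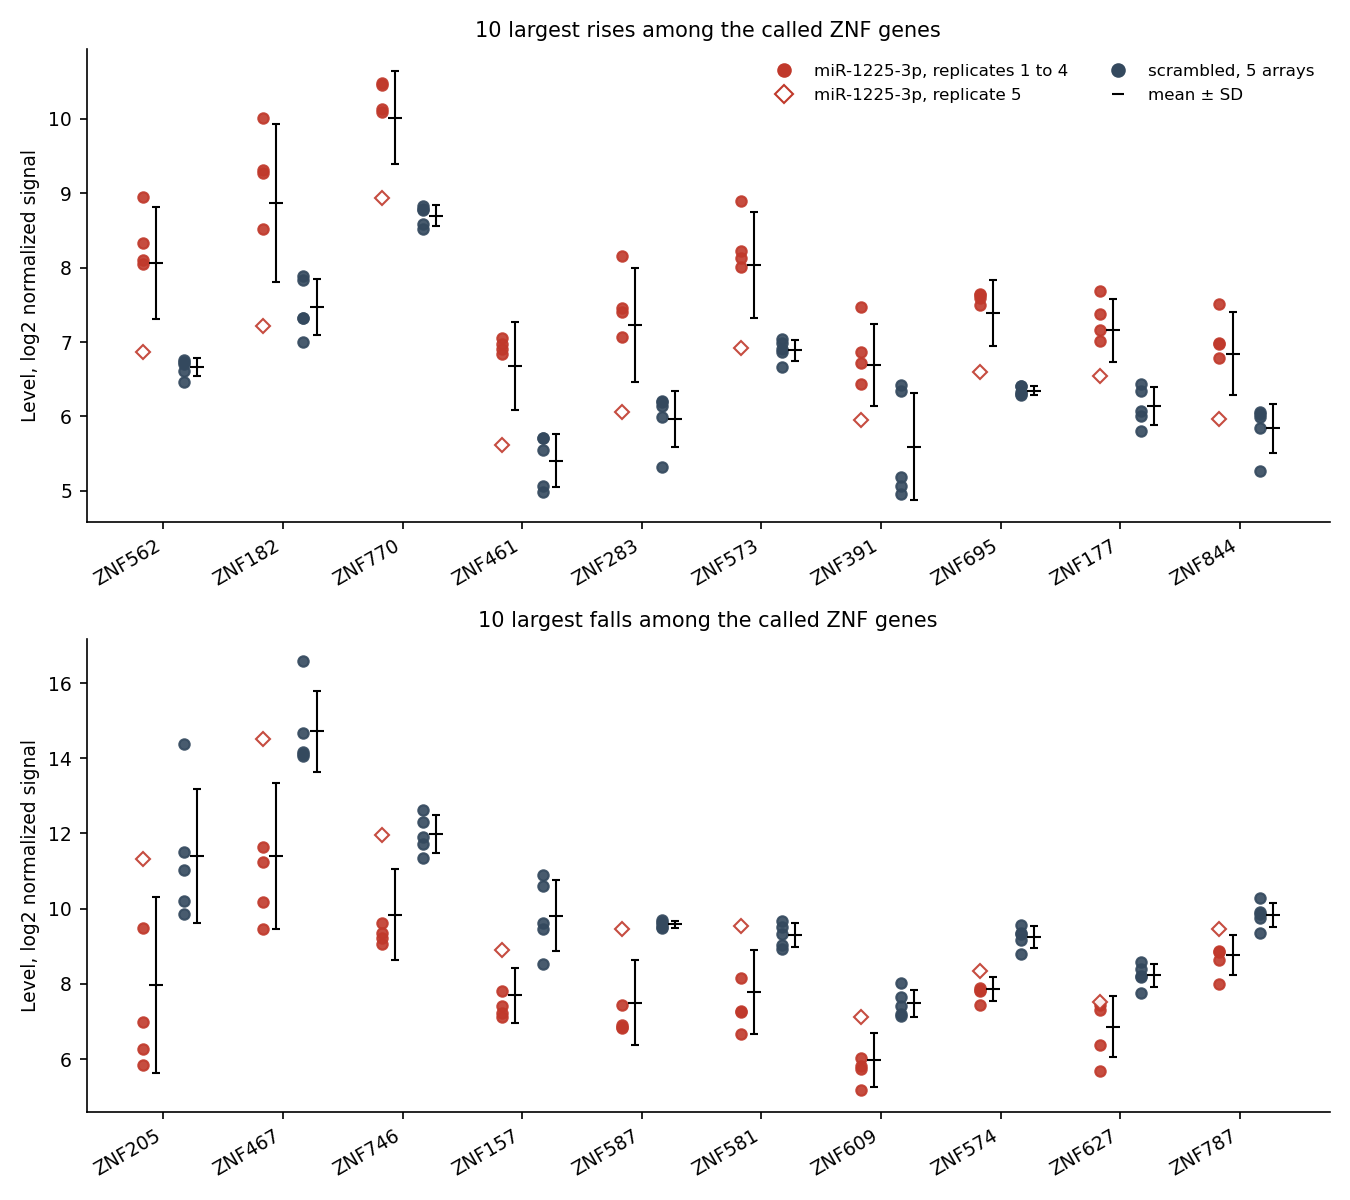
The log2 normalized signal (y axis) of the 10 largest rises (top) and the 10 largest falls (bottom) among the called ZNF genes (x axis) is shown on every array, with miR-1225-3p in red, its replicate 5 as an open diamond, scrambled in dark blue and black bars for the mean ± SD of 5 arrays. The groups did not overlap for 4 of the 10 rises and 4 of the 10 falls, and the open diamond lay closest to the scrambled arrays for each gene.

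The rises were smaller. ZNF562 led them, with 8.96, 8.10, 8.05, 8.33 and 6.87 on the miR-1225-3p arrays and 6.61, 6.74, 6.77, 6.47 and 6.71 on the scrambled arrays, which did not overlap (log2 fold change 1.40, SE 0.32, adjusted p = 0.0157). ZNF770 read 10.09, 10.45, 10.13, 10.48 and 8.94 against 8.52, 8.59, 8.83, 8.78 and 8.78. Every miR-1225-3p array was above every scrambled one for this gene, replicate 5 again being the lowest (log2 fold change 1.32, SE 0.27, adjusted p = 0.0139). Both genes had a second kept probe that did not show the rise, at -0.19 (adjusted p = 0.247) for ZNF562 and -0.45 (adjusted p = 0.242) for ZNF770. ZNF461, in contrast, rose on both of its probes, by 1.27 (SE 0.29, adjusted p = 0.0158) and 1.35 (adjusted p = 0.0268).

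ZNF695 had the smallest SE among the 10 largest rises. It read 7.59, 7.50, 7.64, 7.64 and 6.60 with miR-1225-3p and 6.30, 6.32, 6.41, 6.28 and 6.41 with the scrambled precursor, without overlap (log2 fold change 1.05, SE 0.20, adjusted p = 0.0138). ZNF177, also without overlap, rose by 1.02 (SE 0.22, adjusted p = 0.0147) on the log2 scale. ZNF283, ZNF573 and ZNF844, all on chromosome 19, had log2 fold changes of 1.26, 1.14 and 1.00 with SEs of 0.35, 0.30 and 0.27, and on each of them replicate 5 lay within the scrambled range. The rises of ZNF182 on the X chromosome, at 1.39 (SE 0.45, adjusted p = 0.0386), and of ZNF391 on chromosome 6, at 1.09 (SE 0.37, adjusted p = 0.0436), lost the call in 9 and 7 of the 10 fits that left out 1 array. Of the 10 largest rises, 5 kept the call in every such fit, and 10 kept it under 75th percentile scaling.

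Of the 5 genes with the brightest probes, ZNF467 is given above and ZNF428 rose, from 13.13, 13.26, 13.51, 13.55 and 13.84 on the scrambled arrays to 14.36, 14.40, 14.43, 14.84 and 13.70 (log2 fold change 0.89, SE 0.22, adjusted p = 0.0181). A second probe of ZNF428 read 0.42 and was not called (limma adjusted p = 0.175). ZNF526, ZNF692 and ZNF579 did not pass the test. Their log2 fold changes were -0.24 (SE 0.17, adjusted p = 0.287; 0.45 under 75th percentile scaling), 0.05 (SE 0.15, adjusted p = 0.781) and 0.27 (SE 0.20, adjusted p = 0.301).

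Genes were next grouped by what their proteins are known to do. In the list of 10 genes with RNA, ribosome or translation roles, 8 were members, of which 3 rose and 3 fell, beside 17.3% and 18.1% of all genes, ZNF106 and ZNF593 being the others. Several of these proteins act on the ribosome. ZNF622, which joins newly made large ribosomal subunits and keeps them apart from small ones, fell, with 8.74, 9.06, 8.81, 9.17 and 9.40 on the miR-1225-3p arrays against 9.56, 9.63, 9.91, 10.09 and 10.08 on the scrambled arrays. The groups did not overlap, and all 5 miR-1225-3p arrays were lower (log2 fold change -0.82, SE 0.17, adjusted p = 0.0147). ZNF598, the ubiquitin ligase that senses collided ribosomes, fell as well (log2 fold change -0.73, SE 0.22, adjusted p = 0.0312). ZNF638, an RNA-binding protein that also silences unintegrated viral DNA, fell by the brighter of its probes (log2 fold change -0.87, SE 0.23, adjusted p = 0.021), while the other read 0.23 (adjusted p = 0.523).

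The genes of this list that rose include ZNF277, which binds a protein of the small ribosomal subunit. Its signal was 10.12, 10.25, 10.36, 10.47 and 9.44 with miR-1225-3p and 8.93, 9.17, 9.20, 9.36 and 9.22 with the scrambled precursor, without overlap (log2 fold change 0.95, SE 0.20, adjusted p = 0.0139). ZNF326, a subunit of the DBIRD complex that couples transcription elongation to splicing, rose on its brightest probe (log2 fold change 0.86, SE 0.17, adjusted p = 0.0138). Its other 2 probes went the other way, at -0.80 (adjusted p = 0.043) and -0.94 (adjusted p = 0.127), and the mean over its probes was -0.30 (adjusted p = 0.302), so that no direction holds for the gene as a whole. The remaining rise, named because it completes the count, was that of ZNF346, a double-stranded RNA-binding protein, at 0.60 (SE 0.13, adjusted p = 0.0148). The calls of ZNF622 and ZNF598 were lost under 75th percentile scaling, at -0.42 and -0.48. That of ZNF598 was also lost under quantile normalization, at -0.54, and was kept in 3 of the 10 fits that left out 1 array.

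Among the promoter-bound activators, 6 of 10 were members, of which 3 fell and none rose, beside 18.1% and 17.3% of all genes. ZNF410, known for driving the promoter of the NuRD helicase gene CHD4 and almost no other, read 9.87, 9.78, 9.66, 9.50 and 10.07 against 10.40, 10.45, 10.47, 10.36 and 10.06 (log2 fold change -0.57, SE 0.14, adjusted p = 0.0195). ZNF281, a factor of pluripotency and of the epithelial to mesenchymal transition, gave -0.72 (SE 0.18, adjusted p = 0.0193) and the SCAN-domain gene ZNF24 -0.77 (SE 0.26, adjusted p = 0.0416). These 3 calls were lost under 75th percentile scaling, where ZNF410 read -0.12, ZNF281 -0.43 and ZNF24 -0.28, and ZNF24 was called in 2 of the 10 fits that left out 1 array. A second probe of ZNF24 read -0.26 (limma adjusted p = 0.152). The other 3 genes, ZNF143, ZNF335 and ZNF639, lay between -0.32 and 0.33 and did not pass.

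Among 12 genes of chromatin and corepressor complexes, 6 were members, of which 2 fell, beside 18.1% of all genes. ZNF451, a SUMO ligase that also works in the repair of trapped topoisomerase 2, read 8.76, 8.74, 8.67, 8.96 and 9.57 against 9.98, 10.21, 10.00, 10.10 and 9.39. Replicate 5 of the miR-1225-3p group and replicate 5 of the scrambled group were the arrays that overlapped (log2 fold change -0.997, SE 0.21, adjusted p = 0.0148). Its second probe gave -1.05 (adjusted p = 0.0342). ZNF644, a partner of the histone methyltransferases EHMT1 and EHMT2, fell without overlap (log2 fold change -0.50, SE 0.12, adjusted p = 0.0184), but read -0.04 under 75th percentile scaling and -0.34 under quantile normalization, with no call in either. ZNF219, ZNF292, ZNF462 and ZNF512 did not pass, with log2 fold changes between 0.14 and 0.33. In the list of ubiquitin, signalling and stress roles, 6 genes were members and 5 of these fell. The share of all genes called lower was 18.1%. Besides ZNF451, ZNF622 and ZNF598 they were ZNF580, at -0.82 (SE 0.26, adjusted p = 0.0339), and ZNF675, which binds and dampens the signalling protein TRAF6, at -0.71 (SE 0.20, adjusted p = 0.0255). ZNF395 did not pass. Under 75th percentile scaling ZNF451 alone of the 5 kept the call, ZNF580 reading -0.29 and ZNF675 -0.33, and ZNF580 was called in 2 of the 10 fits that left out 1 array.

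Of 14 KRAB repressors known for acting on transposable elements and imprinted loci or as model repressors, 6 were members, of which 2 rose and 1 fell, beside 17.3% and 18.1% of all genes. ZNF274, which brings SETDB1 to the ends of other ZNF genes, read 6.52, 5.79, 6.42, 5.90 and 7.61 with miR-1225-3p and 7.30, 7.65, 7.48, 7.47 and 7.36 with the scrambled precursor. Its 4 lower miR-1225-3p arrays stood below all scrambled arrays, and replicate 5 above 4 of them (log2 fold change -1.003, SE 0.31, adjusted p = 0.0316). The call was lost in 9 of the 10 fits that left out 1 array. ZNF224, a partner of the Wilms tumour protein, rose (log2 fold change 0.71, SE 0.20, adjusted p = 0.0274, called in 4 of those 10 fits), as did ZNF695 above. ZNF350, known as ZBRK1, ZNF445 and ZNF765 did not pass, with log2 fold changes between -0.11 and 0.43.

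In the list with roles in blood cells, 4 of 9 genes were members, of which 2 rose and 1 fell, beside 17.3% and 18.1% of all genes. ZNF521, a factor of early progenitors that opposes B-cell commitment, fell from 7.79, 8.20, 8.09, 8.11 and 7.87 to 7.95, 7.25, 6.28, 6.44 and 7.34 (log2 fold change -0.96, SE 0.30, adjusted p = 0.0329). Replicate 1 of the miR-1225-3p group lay within the scrambled range, the call was kept in 2 of the 10 fits that left out 1 array, and the second probe of ZNF521 read -0.87 (adjusted p = 0.0381). ZNF160, reported to silence the receptor gene TLR4, rose without overlap by 0.74 (SE 0.16, adjusted p = 0.0145), although its second probe read -0.26 (adjusted p = 0.424). ZNF101 rose by 0.51 (SE 0.17, adjusted p = 0.0394), a call kept in 1 of the 10 fits that left out 1 array. ZNF652, a partner of the corepressor CBFA2T3, read -0.17 (adjusted p = 0.609). Among genes of the spindle, genome stability and DNA replication, 3 of 9 were members and 1 rose, beside 17.3% of all genes. This was ZNF830, a protein of DNA replication and splicing, at 0.69 (SE 0.20, adjusted p = 0.0294), called in 4 of the 10 fits that left out 1 array. ZNF207, or BuGZ, which helps chromosomes align on the spindle, read -0.38 (adjusted p = 0.0897), and ZNF318 read 0.31 on its brightest probe and -1.51 (adjusted p = 0.0145) on a dimmer one.

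The machinery that KRAB zinc fingers recruit was set beside them. Of 24 such genes, all tested, 13 passed, 6 higher and 7 lower (54.2%, beside 35.4% of all genes), and their median log2 fold change was -0.17. Under 75th percentile scaling 10 were higher, 4 were lower and the median was 0.25, so that the direction of the list changed with the scaling. The genes named from it were chosen after their values were seen. TRIM28, the corepressor that KRAB domains bind, fell. It read 11.27, 10.86, 10.66, 10.38 and 12.16 on the miR-1225-3p arrays and 12.83, 12.26, 12.40, 12.08 and 12.40 on the scrambled arrays, with only replicate 5 reaching the scrambled range (log2 fold change -1.33, SE 0.31, adjusted p = 0.0164, exact permutation p = 0.0159, two-sided). CHD4, the NuRD helicase whose promoter ZNF410 drives, read 9.09, 8.81, 8.55, 7.38 and 10.45 against 10.16, 10.16, 10.58, 10.31 and 10.71 (log2 fold change -1.53, SE 0.46, adjusted p = 0.0298). Both TRIM28 and CHD4 were also called lower under 75th percentile scaling, at -0.79 and -1.11.

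Other members of this machinery that fell were the histone methyltransferase genes EHMT2, at -0.95 (SE 0.22, adjusted p = 0.0168), and SUV39H1, at -0.96 (SE 0.26, adjusted p = 0.0233), the HP1 gene CBX5, at -0.77 (SE 0.25), the SETDB1 partner ATF7IP, at -0.65 (SE 0.14), and UHRF1, at -0.45 (SE 0.14). Those that rose were CBX3, another HP1 gene, at 0.69 (SE 0.20, adjusted p = 0.0264), PPHLN1 of the HUSH silencing complex, at 0.67 (SE 0.16, adjusted p = 0.0174), and SUV39H2, RBBP7, SMARCAD1 and DNMT1, between 0.37 and 0.62. SETDB1 itself read 9.53, 9.72, 9.92, 10.04 and 9.17 against 9.21, 9.38, 9.22, 9.23 and 9.18. It did not pass under cyclic loess (log2 fold change 0.43, SE 0.17, adjusted p = 0.0687), and was called higher under 75th percentile scaling, at 0.83, and under quantile normalization, at 0.57. CBX5 lost the call under 75th percentile scaling, at -0.55, and under quantile normalization, at -0.58, as did UHRF1, at -0.03 and -0.29, while ATF7IP lost it under the 75th percentile only, at -0.33.

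**Figure D4:**
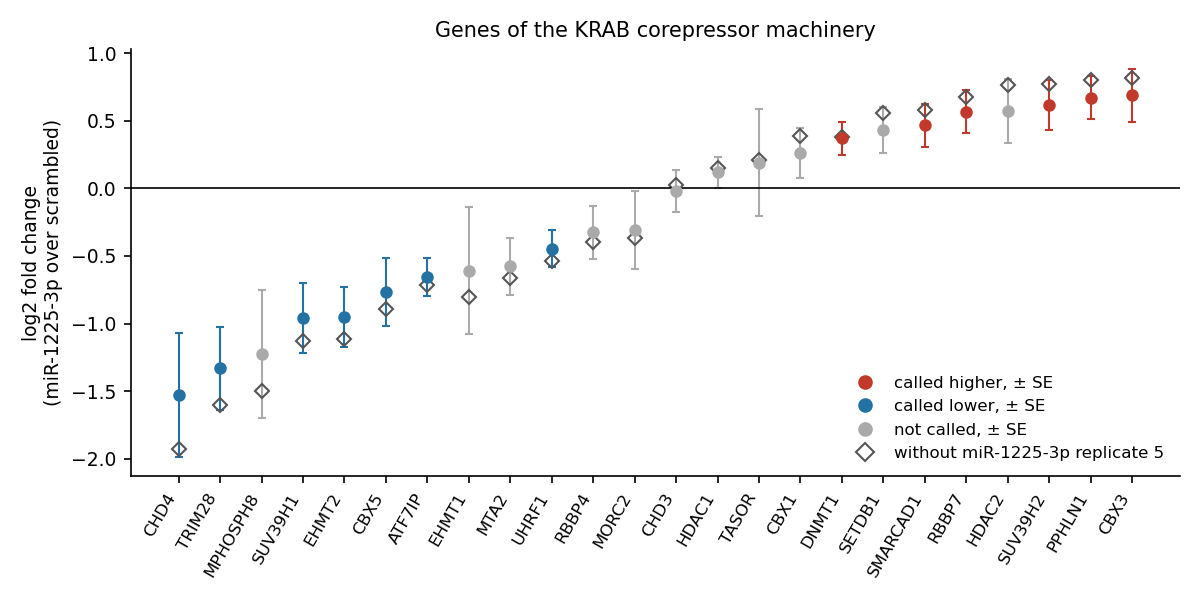
The 24 genes of the KRAB corepressor machinery (x axis) are ordered by log2 fold change (y axis, miR-1225-3p over scrambled, bars ± SE from limma), with genes called higher in red, lower in blue and not called in grey, and open diamonds for the value without miR-1225-3p replicate 5. CHD4 at -1.53 and TRIM28 at -1.33 lay lowest and CBX3 at 0.69 highest.

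Related zinc finger families, with symbols made of ZFP, ZSCAN, ZKSCAN or ZBTB and a number, had 47 genes tested, of which 4 rose and 13 fell (36.2% in all, beside 35.4% of all genes), and the median log2 fold change was -0.18. Under 75th percentile scaling 7 were higher and 10 lower. Without miR-1225-3p replicate 5, 28 passed (59.6%, beside 55.9% of all genes). Leaving out any other single array gave between 5 and 15, beside 12.4% to 27.6% of all genes. The falls included ZFP91, a ubiquitin ligase of the NF-kappaB pathway, at -1.67 (SE 0.48, adjusted p = 0.0264), and ZFP64, a driver of the KMT2A promoter in leukemia, at -0.96 (SE 0.18, adjusted p = 0.0138). ZFP30 and ZFP62 rose, at 1.05 and 0.65. The 12 detected genes whose ZNF symbol ends in a letter had 4 rises and no fall by limma, with a median of 0.13. Their share called was 33.3%, beside 35.4% of all genes.

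Position in the genome was then compared. Chromosome 19 held 87 of the 180 genes, of which 20 rose and 15 fell (40.2% called, beside 43.0% of the ZNF genes elsewhere and 35.4% of all genes), and the median log2 fold change was 0.21. The 93 genes elsewhere had 13 rises and 27 falls and a median of -0.003. The 567 other genes of chromosome 19 that were detected on all 10 arrays had 60 rises and 156 falls, with a median of -0.28. The difference between the ZNF genes of chromosome 19 and the rest was not tested, since genes are not replicates. Under 75th percentile scaling the 3 medians were 0.48, 0.24 and 0.17, so that the sign of the last depended on the scaling while their order did not. With no normalization between arrays they were -0.01, -0.25 and -0.32, and with quantile normalization 0.35, 0.15 and -0.12.

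Runs of neighbouring ZNF genes were taken from the order of protein-coding genes in RefSeq, allowing up to 2 other genes between neighbours and keeping runs with at least 5 of the 180 genes. This definition was chosen after the values had been seen. It gave 9 runs with 78 of the genes, 8 of them on chromosome 19. In 4 runs some of the 180 genes rose and none was called lower by limma. In the run from ZNF577 to ZNF331, 5 of 13 genes rose, beside 17.3% of all genes, the median log2 fold change was 0.43 and 12 of 13 lay above 0. The genes that rose were ZNF331, an imprinted gene, at 0.97 (SE 0.18, adjusted p = 0.0138), ZNF83 at 0.77, ZNF845 at 0.75, ZNF160 at 0.74 and ZNF615 at 0.66. Of 9 further genes of this run that were tested but not detected on all arrays, 3 rose and none fell. A second probe of ZNF331 read -0.70 (adjusted p = 0.141). The count depended on the definition. With only 1 other gene allowed between neighbours, the run from ZNF577 ended at ZNF816, and 2 of its 8 genes rose. Their median was then 0.40 and none fell. Allowing 3 other genes left the run from ZNF577 to ZNF331 unchanged.

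The run from ZNF283 to ZNF180 had 3 rises among 6 genes, with a median of 0.59, ZNF283, ZNF224 and ZNF227 being those that rose, and of its 7 further tested genes 2 rose and 1 fell. The run from ZNF565 to ZNF573 had 3 among 11, with a median of 0.42, ZNF461, ZNF573 and ZNF569. The run from ZNF699 to ZNF846 had 3 among 5, with a median of 0.47, ZNF562, ZNF177 and ZNF426. These counts stand beside 17.3% of all genes called higher, and no run was tested against that share. In these 4 runs no detected member was called lower on its brightest probe under any of the 4 scalings. With no normalization between arrays none was called higher either, and only 7 of the 180 genes were called at all. Each median stayed above that of all genes, by 0.20 to 0.63. With miR-1225-3p replicate 5 left out, the 4 medians lay between 0.43 and 0.75. In that fit 1 member of the run from ZNF699 to ZNF846, ZNF266, was called lower. With all arrays ZNF266 read -0.17 on its brightest probe (limma adjusted p = 0.428). A second, dimmer probe of ZNF266, detected on 8 arrays, was called lower with all arrays, at -1.12 (limma adjusted p = 0.0304).

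In the 5 other runs falls outnumbered rises under cyclic loess with all arrays, beside 18.1% lower and 17.3% higher of all genes. There were 3 falls and 1 rise among 7 genes from ZNF627 to ZNF791, 2 falls among 5 from ZNF579 to ZNF580, 2 falls and 1 rise among 14 from ZNF264 to ZNF8, and 2 falls among 5 on chromosome 7, with medians of -0.07, 0.26, 0.10 and -0.19. From ZNF101 to ZNF254, 5 of 12 genes fell and 1 rose, the median being -0.22. Under 75th percentile scaling falls outnumbered rises only in the run of chromosome 7, with 2 falls and 1 rise. Quantile normalization gave equal counts in the runs from ZNF627 to ZNF791 and from ZNF264 to ZNF8. Without miR-1225-3p replicate 5 the run from ZNF264 to ZNF8 had 7 rises and 2 falls, while falls still led in the others. ZNF254 read 11.10, 10.70, 10.76, 10.80 and 12.03 with miR-1225-3p against 11.77, 11.97, 12.10, 12.00 and 11.89 (log2 fold change -0.87, SE 0.24, adjusted p = 0.0251), and ZNF714 10.82, 10.65, 10.64, 10.67 and 11.75 against 11.57, 11.66, 11.73, 11.79 and 11.69 (log2 fold change -0.78, SE 0.21, adjusted p = 0.0237). ZNF429, ZNF675 and ZNF85 fell by 0.75, 0.71 and 0.69 on the log2 scale, and ZNF101, at one end, was the gene that rose. These 5 falls were not called under 75th percentile scaling, where the median of the run was -0.02 and lay 0.25 below that of all genes. Under cyclic loess it lay 0.18 below. Of its 7 further tested genes, 1 rose and none fell. On chromosome 7, ZNF746 and ZNF467, given above, lie in the same run, and its other 3 genes read between -0.19 and 0.43, without passing the test. Paralogs of a run share sequence, and hybridization of 1 message to the probe of another was not tested.

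**Figure D5:**
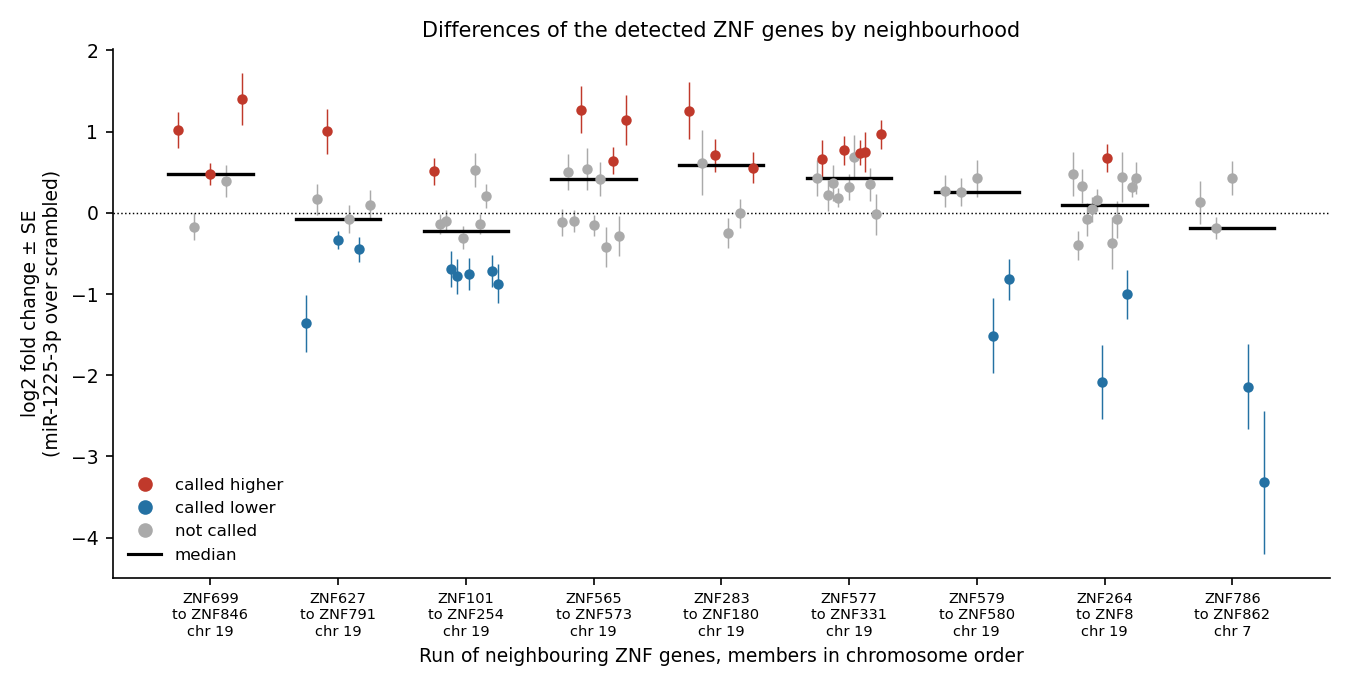
Each point is 1 detected ZNF gene in 1 of the 9 runs of neighbouring ZNF genes (x axis, named by the first and last ZNF gene of the run and by chromosome), at its log2 fold change ± SE from limma (y axis, miR-1225-3p over scrambled). Genes called higher are red, lower blue, not called grey, and black lines are medians, from 0.59 in the run from ZNF283 to ZNF180 down to -0.22 in the run from ZNF101 to ZNF254.

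A feature shared by the promoters, which the selection did not use, was the ETS-type sequence CCGGAAG. RefSeq promoters of 300 bases, from 250 before to 50 after the start site, were at hand for 156 of the 180 genes, and 62 of them (39.7%) held CCGGAAG on either strand, against 19.3% of 9485 promoters of all genes tested and 10.7% of all 27305 promoters of the table. It lay in 9 of 30 promoters of genes that rose, in 16 of 38 of genes that fell and in 37 of 88 of genes that did not pass. On chromosome 19 the share was 43.8%, elsewhere 35.5%. It was 1 of 13 motifs searched, on both strands and after the values had been seen. TTCCGG, which lies within CCGGAAG read on the other strand, was in 52.6% of the ZNF promoters, against 29.7% of those of the genes tested and 17.6% of the table. CCAAT was in 50.6%, against 37.4% and 35.7%, and the cyclic AMP response sequence TGACGTCA in 7.05%, against 3.28% and 1.98%. CCCAGAAT was in 3.85%, against 1.38% and 1.43%, and ACTACAA in 5.77%, against 3.82% and 2.95%. The GC box GGGCGG was no more frequent than among the genes tested, in 65.4% against 68.4% and 44.6%, and the same held for GCGGGA, in 41.7% against 41.2% and 26.8%, and for GAGCCCC, in 12.8% against 12.6% and 10.1%. CATGCGC was in 7.05%, against 7.36% and 4.67%, and GCGCATGC, which overlaps it, in 5.13%, against 5.40% and 3.27%. The TATA box TATAAA was in 4.49%, against 6.56% and 12.0%, and TCTCGCGA in 0.641%, against 2.35% and 1.19%. The median GC content of the ZNF promoters was 62.3%, against 65.0% for the genes tested.

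The promoters of the 2 largest rises and the 2 largest falls among the named genes that hold the motif are shown 5′ to 3′ on the strand of the gene, with the match in capitals, to let the placement be seen. All read CTTCCGG, the reverse complement. In ZNF587 and ZNF609 the match begins 14 and 15 bases before the start site, in ZNF283 86 bases before it and in ZNF461 at base 2 of the transcript. Positions are on GRCh38.p14: ZNF461 chr19:36666788-36667087, minus strand, ZNF283 chr19:43827071-43827370, plus strand, ZNF587 chr19:57849609-57849908, plus strand, and ZNF609 chr15:64460328-64460627, plus strand. A match of letters says nothing of binding.
ZNF461: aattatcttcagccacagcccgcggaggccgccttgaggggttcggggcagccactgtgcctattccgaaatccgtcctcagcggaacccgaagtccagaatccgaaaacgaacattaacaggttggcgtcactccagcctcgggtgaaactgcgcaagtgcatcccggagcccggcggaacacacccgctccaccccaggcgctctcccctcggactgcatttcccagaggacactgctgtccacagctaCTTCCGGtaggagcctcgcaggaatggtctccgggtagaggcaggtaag
ZNF283: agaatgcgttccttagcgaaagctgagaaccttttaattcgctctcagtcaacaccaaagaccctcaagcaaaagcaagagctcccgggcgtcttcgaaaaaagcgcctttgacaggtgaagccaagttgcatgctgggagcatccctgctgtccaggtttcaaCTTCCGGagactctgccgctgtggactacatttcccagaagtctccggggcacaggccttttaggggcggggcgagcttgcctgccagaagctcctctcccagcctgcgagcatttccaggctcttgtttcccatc
ZNF587: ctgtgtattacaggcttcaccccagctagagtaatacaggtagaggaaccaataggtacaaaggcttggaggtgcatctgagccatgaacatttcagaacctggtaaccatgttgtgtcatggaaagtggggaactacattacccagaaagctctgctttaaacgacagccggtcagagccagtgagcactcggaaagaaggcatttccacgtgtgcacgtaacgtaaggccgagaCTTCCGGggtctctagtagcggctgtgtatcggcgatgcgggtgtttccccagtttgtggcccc
ZNF609: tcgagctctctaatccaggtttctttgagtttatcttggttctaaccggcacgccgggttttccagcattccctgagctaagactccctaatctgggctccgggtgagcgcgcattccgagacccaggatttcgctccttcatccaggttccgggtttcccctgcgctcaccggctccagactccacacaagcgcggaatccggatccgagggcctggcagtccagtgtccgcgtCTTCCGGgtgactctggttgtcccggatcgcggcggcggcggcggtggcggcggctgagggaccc

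How far a ZNF gene can be read from 1 probe was limited. Of the 180 genes, 48 had more than 1 kept probe, and for 26 of these at least 1 further probe lay on the other side of 0. Among the 75 called genes 23 had a further probe. It was called in the same direction for ZNF394, ZNF451, ZNF461 and ZNF521, in the opposite direction for ZNF326 and ZNF621, and not called for the other 17. ZNF621 read 0.56 on the brightest probe and -2.09 on the other (adjusted p = 0.0183).

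The edge of the selection was as follows. The members with the dimmest probes were ZNF486, ZNF420 and ZNF211, with group means of 5.44 and 5.57, 5.98 and 5.56, and 5.75 and 5.83 for miR-1225-3p and scrambled. Just outside it, ZNF576, ZNF433 and ZNF112, each detected on 9 arrays, had means of 6.07 and 7.56, 6.74 and 5.75, and 6.48 and 6.01. Of the 443 genes on the array, 179 were detected on 1 to 9 arrays and 84 on none. Of the genes outside the selection 122 were tested, of which 24 were higher and 20 lower (36.1%, beside 35.4% of all genes). Their median log2 fold change was 0.18.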

How the data were processed

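RNA of 10 MEG-01 cultures, 5 per group, was measured on 1-colour arrays. The authors deposited a scanner file per array, with linear spot intensity, background-subtracted by Agilent Feature Extraction (version 10.7.3.1 in the submitters' processing notes), and a common file of log2 values normalized between arrays, used here as an alternative. Intensities were taken as log2 and normalized by cyclic loess (3 iterations) in limma 3.58.1 under R 4.3.3, with version 1.17.8 of data.table. On each array 4259 control spots were left out. Of the 58717 other spots, those flagged as outliers were set missing (177 of the probe values), and spots of a probe were averaged. A probe counted as detected on an array when most of its spots were well above background, and 20396 of 42405 probes, detected on at least 3 arrays of either group, were kept. A gene was represented by its brightest probe among those detected on all 10 arrays, or else its brightest kept probe. The design's RefSeq accessions were matched to current symbols, which 24910 probes and 11788 of the 17166 genes tested had. No column of the files gave gene names, so ZNF genes were found through these accessions only.

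Groups were compared with limma's moderated test and Benjamini-Hochberg adjustment over all genes tested at 0.05, and single genes also with two-sided exact permutation tests, for which 5 against 5 allows no p below 0.00794. The code was tested on simulated data. Beyond the spread between these cultures the p-values measure nothing, and the number of arrays limits the precision. Named genes were the 10 largest rises and 10 largest falls among the called ZNF genes, the 5 with the brightest probes, and up to 4 of each role list by size of change. Others named were chosen after their values were seen. The ZNF genes, the role lists and the tests were chosen with earlier results of these data known. Alternatives covered scaling, background correction, filters, probe choice, the test, slides, replicate numbers, each array left out, and the definition of a ZNF gene. A planned side-by-side of genes by KRAB and SCAN domains and number of fingers was not run, since it needs protein sequences, which were not used here. Promoter and microRNA sequences are RefSeq's (GRCh38.p14).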

Additional observations from a re-analysis of the deposited data

Results flagged for a closer look

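In 12 of the 96 sets of 5 arrays examined, 1 set per group for each of 48 named genes, 1 array lay far from the other 4. The test used flags about 1 set in 20 by chance, or 4.8 of 96. In 6 sets the array was miR-1225-3p replicate 5. It read 8.94 for ZNF770, where the other 4 arrays read 10.09 to 10.48, 5.621 for ZNF461, where they read 6.836 to 7.058, and 6.6 for ZNF695, where they read 7.495 to 7.641. For genes that fell it was the highest, at 11.97 for ZNF746 against 9.073 to 9.612, and at 9.469 for ZNF587 against 6.824 to 7.45. For ZNF326 it read 11.9, against 12.49 to 12.68. In 3 sets the array was scrambled replicate 1, with 5.321 for ZNF283 against 5.989 to 6.207, 5.267 for ZNF844 against 5.84 to 6.065, and 16.6 for ZNF467 against 14.05 to 14.66. In the remaining 3 it was scrambled replicate 5, with 7.455 for ZNF638 against 7.975 to 8.056, 10.06 for ZNF410 against 10.36 to 10.47, and 9.392 for ZNF451 against 9.977 to 10.21.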

How the results depend on the processing

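Each of the 75 called ZNF genes kept its direction under every alternative except 1 gene under 75th percentile scaling and 3 with the mean of a gene's probes. The counts of ZNF genes called stayed within 1.5 times the first with quantile normalization, normexp, the authors' normalized values, flagged spots kept, the mean of a gene's probes and a robust trended limma fit. The same held with the slide as a block (65) and the methods' t-test (62 after adjustment, 94 at an unadjusted p under 0.05 alone). With the slide block and the adjusted t-test the ZNF shares were 36.1% and 34.4%, beside 31.1% and 26.8% of all genes. Counting symbols with a letter gave 79, and restricting to current symbols changed nothing by construction. Under 75th percentile scaling 53 ZNF genes were higher and 19 lower, with a median of 0.3383, and under quantile normalization the median was 0.2343. With no normalization between arrays 1257 genes and 7 ZNF genes were called, 0 higher and 7 lower, all 7 past a fold of 2, the median was -0.1508, and 0 corepressor and 4 related genes were called. The ZNF share called with no normalization was 3.89%, beside 7.32% of all genes. Normexp left 9 ZNF genes past a fold of 2. With no filter on dim probes 3425 genes were called, of which 43 ZNF (20 higher, 23 lower), 6 corepressor and 5 related genes. The ZNF share was then 23.9%, beside 9.71% of the 35267 genes tested. Only 10 related genes were called with probes detected on all arrays, a filter that left 11867 genes tested, and 8 with the methods' t-test. Of all genes tested, 39.0% and 26.8% were called in these 2 fits. Within slide 1 the calls were 42 ZNF (21 and 21), 7 corepressor and 9 related genes. Within slide 2, limma called 0 genes in every list, with 1223 genes and 10 ZNF genes at an unadjusted p under 0.05. On slide 2 without miR-1225-3p replicate 5, an alternative added after seeing the data, 45 ZNF genes passed with a fold over 2 and 10 related genes were called. Leaving out 1 array gave 2132 to 9594 genes, 29 to 116 ZNF genes (14 to 68 higher, 14 to 48 lower, 11 to 35 past a fold of 2, median 0.02018 to 0.1342), 4 to 18 corepressor genes and 5 to 28 related genes, the top of the call counts being reached without miR-1225-3p replicate 5. The cause of these shifts was not tested.

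Replicate numbers do not pair the samples. Same-numbered arrays deviated with correlations of -0.217, -0.0923, -0.403, 0.0745 and -0.159, and with the replicate block limma called 0 of all genes, ZNF, corepressor or related genes, with 7398 genes and 81 ZNF genes at an unadjusted p under 0.05.

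Of 1248 pairs of a named gene and an alternative, 950 kept direction and call, 280 lost the call, 8 gained it and 10 turned direction. ZNF526 read 0.4537 under 75th percentile scaling and 0.1026 under quantile normalization, ZNF207 0.1504 under 75th percentile scaling and ZNF639 -0.09556 with no normalization. ZNF692 read -0.07657 in the authors' values, -0.0797 within slide 1 and, with 1 array left out, between -0.01008 (scrambled replicate 2) and 0.1557 (scrambled replicate 5). With the mean of probes ZNF326 read -0.2969 and ZNF318 -0.5983, and ZNF652 read 0.2597 on slide 2 without miR-1225-3p replicate 5.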
